A study of Mus musculus with 4 samples.

Results

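Solute carriers are membrane proteins that move nutrients, ions, metals, nucleosides and metabolites across the plasma membrane and the membranes of organelles, and their genes bear names that start with Slc. The genes described here were selected on measured intensity: those with a probe set whose symbol starts with Slc and a digit and whose intensity reached 139, the median of all values, on at least 1 of 4 arrays. The arrays held 419 such probe sets with 1 symbol for 262 Slc genes, of 22690 probe sets in all. The selection rule left out Slc34a2, Slc12a2, Slc2a4, Slc25a20 and Slc27a2, with 9 probe sets, and 3 probe sets that bear several symbols. Of the rest, 182 probe sets of 127 genes reached the threshold, and 228 probe sets did not, so that 130 Slc genes had no probe set in use.

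The mice were nulliparous females with an FVB background, and the RNA came from mammary gland. Each group was read on 1 Affymetrix array, with RNA pooled from 5 mice. The groups were MMTV-PPARd mice on chow with GW501516 for 1 week, MMTV-PPARd mice on standard chow, age-matched wild-type littermates on chow with GW501516 for 1 week, and wild-type littermates on standard chow. The transgene carries the nuclear receptor PPARd under the promoter of the mouse mammary tumour virus, which is active in mammary epithelium and is also known to work in salivary gland and lymphoid cells. GW501516 is a synthetic agonist of PPARd, and the labels gave its content in the chow as 0.005% in 1 place and 0.001% in another. With 1 pool per group there was no spread between mice or arrays, so no difference below has a test or a standard error, and each describes these 4 pools. Fewer cells of a type and less RNA per cell cannot be told apart in such tissue pools.

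Carriers work as uptake pumps coupled to sodium or protons, as facilitative pores driven by the gradient of the substrate, or as exchangers. In the mammary gland they are known for supplying the secretory epithelium with glucose, amino acids, fatty acids, zinc and phosphate for milk, and the Golgi with sugar nucleotides for lactose and glycoproteins. PPARd forms a dimer with RXR and binds a direct repeat of the AGGTCA half-site with 1 base between the copies, and is known for genes of fatty acid oxidation.

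For 3 genes both MMTV-PPARd arrays lay at least 2-fold above both wild-type arrays: Slc28a3, Slc39a8 and Slc5a1. Their promoter windows, of 300 bases around the annotated start, are given here from RefSeq on GRCm38.p6, 5′ to 3′ on the gene's own strand, with each AGGTCA half-site on either strand in capitals. Slc28a3 lies on chromosome 13 (chr13:58610828-58611127, minus strand), Slc39a8 has a pair of annotated starts on chromosome 3 (chr3:135825029-135825328 and chr3:135825407-135825706, plus strand), and Slc5a1 lies on chromosome 5 (chr5:33103969-33104268, plus strand).
Slc28a3: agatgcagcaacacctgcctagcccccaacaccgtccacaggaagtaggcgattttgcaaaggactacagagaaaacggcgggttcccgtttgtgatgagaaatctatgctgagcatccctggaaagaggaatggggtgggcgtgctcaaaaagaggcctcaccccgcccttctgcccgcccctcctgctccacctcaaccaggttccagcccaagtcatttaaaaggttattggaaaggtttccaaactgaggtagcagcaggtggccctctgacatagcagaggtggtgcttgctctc
Slc39a8, start 1: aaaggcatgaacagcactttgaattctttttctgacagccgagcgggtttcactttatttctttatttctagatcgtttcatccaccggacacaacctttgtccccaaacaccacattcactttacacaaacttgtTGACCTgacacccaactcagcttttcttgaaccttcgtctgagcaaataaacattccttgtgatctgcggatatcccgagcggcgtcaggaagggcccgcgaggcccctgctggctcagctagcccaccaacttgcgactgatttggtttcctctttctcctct
Slc39a8, start 2: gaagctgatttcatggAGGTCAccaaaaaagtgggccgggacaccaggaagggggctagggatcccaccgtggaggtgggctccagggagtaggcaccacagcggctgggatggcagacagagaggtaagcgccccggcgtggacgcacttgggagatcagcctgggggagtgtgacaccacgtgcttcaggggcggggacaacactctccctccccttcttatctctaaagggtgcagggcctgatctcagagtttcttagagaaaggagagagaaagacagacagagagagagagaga
Slc5a1: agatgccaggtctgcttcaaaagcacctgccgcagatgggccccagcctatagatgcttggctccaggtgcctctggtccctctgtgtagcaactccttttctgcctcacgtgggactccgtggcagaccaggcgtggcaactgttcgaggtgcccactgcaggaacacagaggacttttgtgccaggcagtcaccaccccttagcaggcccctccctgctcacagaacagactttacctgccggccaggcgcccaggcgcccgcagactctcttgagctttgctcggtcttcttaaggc
Each Slc39a8 window held 1 half-site, which read TGACCT on the printed strand at start 1, and the Slc28a3 and Slc5a1 windows held none. The PPAR response element was searched on both strands as exact letters only. It was taken as the full direct repeat of that half-site with 1 base of any kind between the copies. This was found in 0 of 145 windows of 103 Slc genes that matched, against 13 of 32851 windows of all genes (0.0396%). With so rare a match, 0 of 145 cannot tell Slc genes from all genes. Elements that depart from these letters were not searched. The single half-site AGGTCA, of which the full repeat holds a pair, was in 22 of 145 Slc windows (15.2%), against 16.3% of all windows. TTCNNNGAA, the STAT element, was in 5 of 145 Slc windows (3.45%), against 8.30% of all windows. A match describes the letters of a window only.

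Ppard read 4223.5 in MMTV-PPARd mice on GW501516 and 1943.0 on chow, against 1.5 in wild type on GW501516 and 2.1 on chow, both below the floor of 20.5 that was set at the 25th percentile of all values. It was thus at least 206-fold higher in MMTV-PPARd mice on GW501516 and at least 94.8-fold higher on chow. The array of MMTV-PPARd mice on chow stood apart: Gapdh, a glycolytic enzyme, read 10269.0 in MMTV-PPARd mice on GW501516 and 3572.5 on chow, against 12274.2 in wild type on GW501516 and 8730.0 on chow, and the hybridisation control BioB-M read 519.0, 32.4, 438.1 and 507.6 in the same order. Summed over 21 skeletal muscle markers, intensity was 149823 and 41237 in MMTV-PPARd mice on GW501516 and on chow, against 157703 and 16549 in wild type. The 10 T cell markers kept summed to 500 and 1997, against 570 and 5874, and the 7 B cell markers to 411 and 2097, against 452 and 3701. The 18 milk protein and alveolar markers summed to 159132 and 76050, against 64306 and 41763, and 14 luminal markers, which include Krt8 and Krt18, to 35198 and 31852, against 27026 and 24049. The 7 salivary gland markers summed to 3712 and 3008, against 10197 and 3995, with Bpifa2 at 3719.0 in wild type on GW501516 and under the floor on the other 3 arrays. The part of these tissue differences in the results below was not tested.

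On GW501516, the Slc genes higher in MMTV-PPARd mice came from several substrate groups, with the nucleoside carrier Slc28a3 at the top, and the fructose carrier Slc2a5 was lower. Of 127 Slc genes, 10 were at least 2-fold higher in MMTV-PPARd mice than in wild type (7.87%), against 2.82% of the 7836 genes kept, and 1 was at least 2-fold lower (0.787%), against 1.19%. The median log2 difference was 0.13 over the Slc genes and 0.0016 over all genes kept, and 81 Slc genes lay above 0 and 46 below. This comparison does not use the array of MMTV-PPARd mice on chow. The rule that chose the members shapes such counts, since a gene may enter through the array on which it is high: 105 of the 127 genes reached 139 on all 4 arrays, and 14 on 1 array alone, 7 of them on that of MMTV-PPARd mice on GW501516. Slc2a9, Slc22a18 and Slc35c2 are among those 7, Slc25a13 entered through MMTV-PPARd mice on chow alone, and Slc2a5 through wild type on GW501516 alone. Slc5a1 reached 139 on both MMTV-PPARd arrays and on neither wild-type array. Thus Slc2a9, Slc22a18, Slc35c2, Slc25a13 and Slc5a1, all among the 10 higher genes, reached 139 on MMTV-PPARd arrays only.

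**Figure D1:**
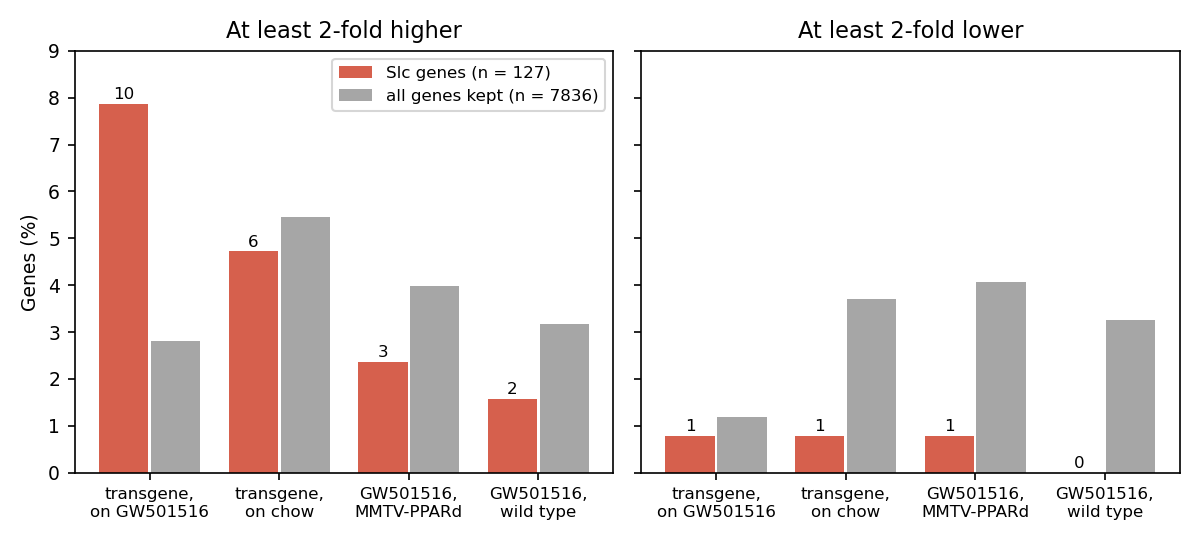
Share of genes at least 2-fold higher (left) and lower (right), in percent, in each comparison that differs in 1 factor; red bars stand for the 127 Slc genes, with the number of genes above the bar, and grey bars for the 7836 genes kept. The red bar is the taller of the pair in 1 place, higher in MMTV-PPARd than in wild type on GW501516 (7.87% against 2.82%).

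Slc28a3 encodes CNT3, which takes up purine and pyrimidine nucleosides with sodium. Its intensity was 4280.6 in MMTV-PPARd mice on GW501516 and 1126.0 on chow, against 366.2 in wild type on GW501516 and 209.8 on chow. The MMTV-PPARd arrays were the highest, and GW501516 stood above chow in each genotype. The transgene difference was 11.7-fold on GW501516 and 5.37-fold on chow. A second Slc28a3 probe set read 491.7 and 81.0 in MMTV-PPARd mice on GW501516 and on chow, against 28.3 and 2.1 in wild type, and both probe sets were at least 2-fold apart the same way in every comparison but that of GW501516 with chow in wild type.

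Among sugar carriers, Slc5a1, the sodium-glucose cotransporter SGLT1, read 184.7 in MMTV-PPARd mice on GW501516 and 259.3 on chow, against 57.6 in wild type on GW501516 and 14.2 on chow. That last value lay below the floor, so the transgene difference was 3.21-fold on GW501516 and at least 12.6-fold on chow. The order of the arrays was shared by its second probe set (105.3 and 156.1 in MMTV-PPARd mice on GW501516 and on chow, against 34.1 and 16.0 in wild type). Slc2a9, the urate carrier GLUT9, read 229.6 and 86.1 in MMTV-PPARd mice on GW501516 and on chow, against 46.3 and 31.3 in wild type, which is 4.96-fold and 2.75-fold. With the floor at 71.1 its log2 difference on chow was 0.28, under 2-fold. Both MMTV-PPARd pools lay above both wild-type pools. Slc2a1, the glucose carrier GLUT1 that supplies lactose synthesis, read 1474.3 and 1191.8 in MMTV-PPARd mice on GW501516 and on chow, against 615.1 and 851.1 in wild type. It was 2.40-fold higher on GW501516, the diet on which wild type read lowest, and its 3 member probe sets were each at least 2-fold higher there (log2 1.26 to 1.55). Slc2a5, the fructose carrier GLUT5, was the 1 Slc gene lower by 2-fold, at 45.2 in MMTV-PPARd mice on GW501516 against 173.8 in wild type on GW501516 (3.85-fold). On chow it read 104.0 in MMTV-PPARd mice and 86.6 in wild type.

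Slc7a5, the LAT1 subunit for large neutral amino acids, read 761.0 in MMTV-PPARd mice on GW501516 and 460.0 on chow, against 206.6 in wild type on GW501516 and 381.1 on chow. It was 3.68-fold higher in MMTV-PPARd mice on GW501516. Slc3a2, the CD98 heavy chain with which Slc7a5 forms a dimer, read 1487.6 and 1070.8 in MMTV-PPARd mice on GW501516 and on chow, against 1208.9 and 1108.1 in wild type, a log2 difference of 0.30 between the genotypes on GW501516. Slc7a7, another partner of Slc3a2 that exchanges cationic and neutral amino acids, stood under 2-fold at 0.69.

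Slc39a8, the zinc and manganese importer ZIP8, read 559.4 in MMTV-PPARd mice on GW501516 and 765.1 on chow, against 176.1 in wild type on GW501516 and 182.9 on chow. The genotypes were far apart on both diets (3.18-fold and 4.18-fold), and the wild-type pools lay close together. Slc27a4, the fatty acid transport protein FATP4, read 696.3 and 424.3 in MMTV-PPARd mice on GW501516 and on chow, against 242.4 and 258.2 in wild type, and was 2.87-fold higher on GW501516. Slc27a1, the other fatty acid transport protein in use, went the other way. It read 708.7 and 481.9 in MMTV-PPARd mice on GW501516 and on chow, against 855.1 and 776.6 in wild type. Slc35c2, a Golgi protein linked to fucosylation, read 270.6 and 129.4 in MMTV-PPARd mice on GW501516 and on chow, against 106.6 and 98.9 in wild type. It was 2.54-fold higher on GW501516, and its second probe set also passed 2-fold there. Slc22a18, an imprinted gene of the organic cation carrier family, was 2.29-fold higher on GW501516 (199.3 against 87.1) and 1.89-fold on chow (100.4 against 53.2). Slc25a13, the mitochondrial aspartate-glutamate carrier citrin, read 101.0 and 148.4 in MMTV-PPARd mice on GW501516 and on chow, against 44.5 and 56.9 in wild type, which is 2.27-fold and 2.61-fold, with a log2 difference of 0.51 on GW501516 at the higher floor.

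**Figure D2:**
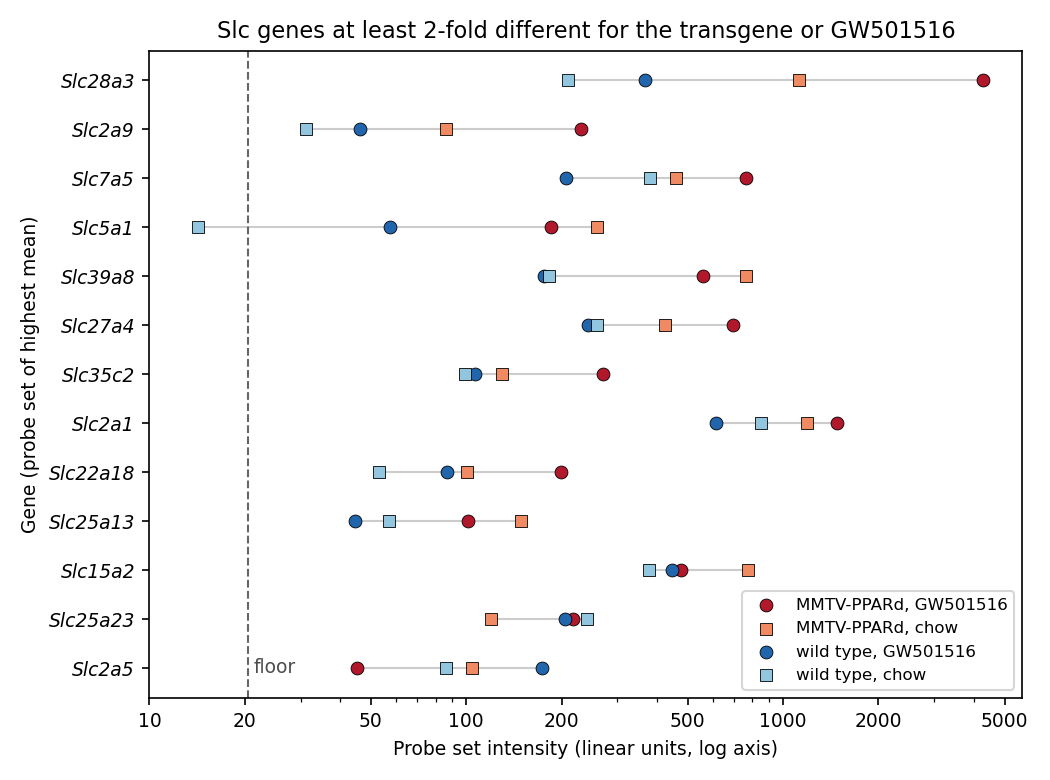
Probe set intensity (linear units on a log axis) of the 13 Slc genes at least 2-fold different for the transgene or for GW501516, ordered by the transgene difference on GW501516. Red circles are MMTV-PPARd on GW501516, orange squares MMTV-PPARd on chow, blue circles wild type on GW501516 and light blue squares wild type on chow, each 1 pool, and the dashed line is the floor of 20.5. Red and orange lie to the right of both blues in 11 of the 13 genes, while in Slc25a23 orange is the lowest and in Slc2a5 red is.

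The lowest of the other genes on GW501516 stayed under 2-fold. Slc25a35, a mitochondrial carrier whose substrate is not settled, was 1.80-fold lower in MMTV-PPARd mice on GW501516 (311.5 against 561.1), Slc5a6, the sodium-coupled carrier of biotin and pantothenate, 1.76-fold (222.5 against 391.4), and Slc4a4, a sodium bicarbonate cotransporter, 1.61-fold (158.5 against 255.9). Slc25a44, which carries branched-chain amino acids into mitochondria, was 1.57-fold lower and Slc43a3, a purine nucleobase carrier, 1.44-fold.

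On chow, nucleoside, zinc, glucose, urate and peptide carriers were among the Slc genes higher in MMTV-PPARd mice. There were 6 of 127 at least 2-fold higher (4.72%), against 5.46% of all genes kept, and 1 at least 2-fold lower (0.787%), against 3.71%. The median was 0.02 for Slc genes and for all genes, and that of the Slc genes was -0.07 with the arrays shifted to 1 median and -0.03 after quantile normalization, with all genes at -0.05 and -0.01 under the same settings. This comparison rests on the array with low Gapdh and BioB-M. Higher were Slc5a1, Slc28a3, Slc39a8, Slc2a9, Slc25a13 and Slc15a2. Slc15a2, the proton-coupled peptide carrier PEPT2, read 477.1 in MMTV-PPARd mice on GW501516 and 777.4 on chow, against 446.6 in wild type on GW501516 and 378.0 on chow. It was 2.06-fold higher on chow, while its difference on GW501516 was 0.10 on the log2 scale, and it stood just under 2-fold after either rescaling (log2 0.97 and 0.96). Slc26a2, a sulphate carrier, was 1.78-fold higher on chow (586.7 against 329.6) and read 347.8 against 354.8 on GW501516.

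Slc25a23, an ATP-Mg and phosphate carrier of mitochondria, was the 1 gene at least 2-fold lower on chow, at 120.1 in MMTV-PPARd mice against 241.3 in wild type (2.01-fold). On GW501516 it read 216.4 against 204.9. Slc1a5, the glutamine carrier ASCT2, was 1.94-fold lower on chow (1350.6 against 2615.3) and read 1997.3 against 2771.8 on GW501516. Slc25a42, the mitochondrial coenzyme A carrier, and Slc22a4, an ergothioneine carrier, were each 1.90-fold lower on chow. Slc10a6, which takes up steroid sulphates, was 1.78-fold lower on chow (207.0 against 367.7) and 1.41-fold lower on GW501516 (266.1 against 375.0). White adipocyte markers summed to 59479 in MMTV-PPARd mice on chow, against 81172 in wild type on chow, and fibroblast markers to 59620, against 89065.

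**Figure D3:**
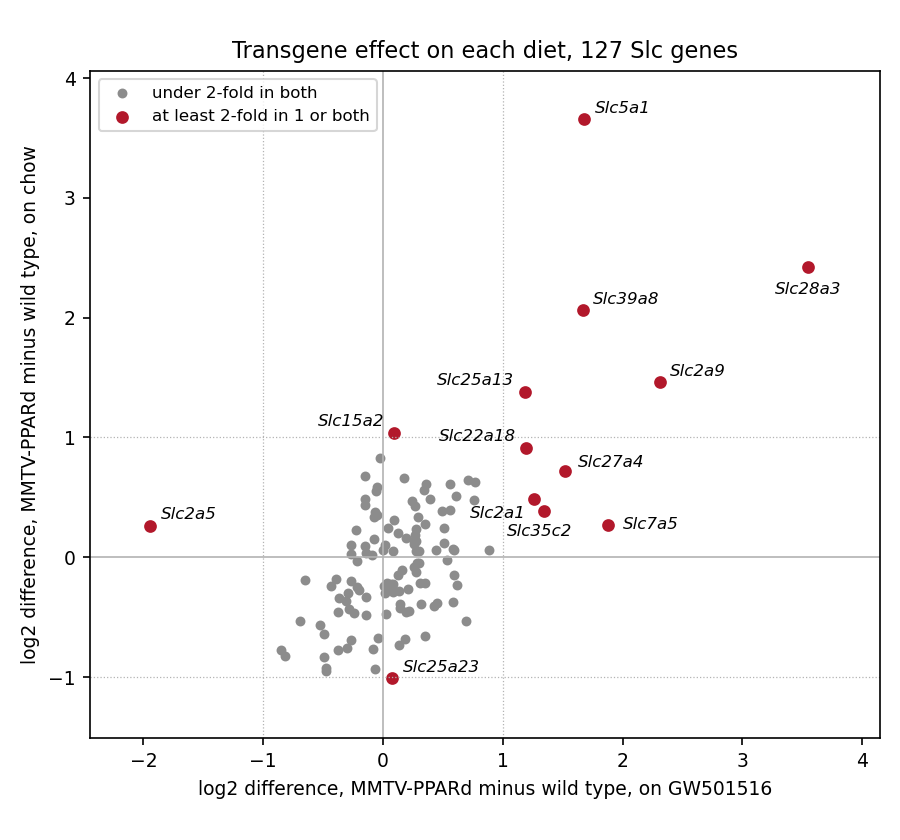
Log2 difference of MMTV-PPARd minus wild type on GW501516 (horizontal) and on chow (vertical) for each of the 127 Slc genes, with 2-fold marked by dotted lines; red points are at least 2-fold different on 1 or both diets. Slc5a1, Slc28a3, Slc39a8, Slc2a9 and Slc25a13 lie past 2-fold on both diets, and Slc2a5 stands alone on the left; the vertical value of Slc5a1 is a lower bound.

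The comparisons on chow and on GW501516 use separate arrays. Past 2-fold on both diets were 5 of 127 Slc genes (3.94%), against 1.57% of all genes kept. Of these, Slc2a9 and Slc25a13 were each selected through 1 MMTV-PPARd array on which they were high, and with the floor at 71.1, the 40th percentile, the count was 3, without them. In 3 of the 5 genes both MMTV-PPARd arrays lay at least 2-fold above both wild-type arrays (2.36%), against 1.07%. One of them, Slc5a1, reached the selection threshold on MMTV-PPARd arrays only, so nothing is read from this excess. Both MMTV-PPARd arrays lay at least 2-fold below both wild-type arrays for 0 Slc genes, against 0.0510%. By any amount, both MMTV-PPARd arrays lay above both wild-type arrays for 38 Slc genes (29.9%), against 20.9% of all genes. They lay below for 25 (19.7%), against 18.0%. This reading was added after the values were seen. Of the 38, Slc22a18, Slc25a13, Slc2a9, Slc35a3, Slc35c2, Slc46a1 and Slc5a1 reached the selection threshold on MMTV-PPARd arrays only, so nothing is read from the excess above. The array of MMTV-PPARd mice on GW501516 lay at least 2-fold above each of the other 3 arrays for Slc28a3, Slc2a9 and Slc35c2 (2.36%), against 0.842%, but Slc2a9 and Slc35c2 were selected through that array alone, so nothing is read from this count.

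Over all genes, 20.9% lay above both wild-type arrays on both MMTV-PPARd arrays and 18.0% below. Carriers of nucleotide sugars and acetyl-CoA in the secretory pathway were above for 7 of 15 genes and below for 3. Of the 7, Slc35a3 and Slc35c2 each reached the selection threshold on 1 MMTV-PPARd array alone. Slc35a1, the Golgi carrier of CMP-sialic acid, read 1111.5 and 1101.5 in MMTV-PPARd mice on GW501516 and on chow, against 922.6 and 820.1 in wild type, and Slc35b1, which exchanges ATP into the endoplasmic reticulum, 1702.2 and 1337.7, against 1249.5 and 1281.9. Metal and haem carriers were above for 8 of 24 genes and below for 2. Slc30a4, a zinc exporter whose loss gives zinc-poor milk in mice, read 1075.5 and 956.1 in MMTV-PPARd mice on GW501516 and on chow, against 728.1 and 626.7 in wild type. Its log2 differences were 0.56 on GW501516 and 0.61 on chow. Vitamin, choline and nucleoside carriers were above for 5 of 11 genes and below for 1, and Slc44a1, a choline carrier, read 1902.8 and 2372.5, against 1479.6 and 1551.7. Slc46a1, among the 5, was selected through the array of MMTV-PPARd mice on GW501516 alone.

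Amino acid and peptide carriers were split, with 4 of 16 above and 4 below. Slc38a2, the neutral amino acid carrier SNAT2, read 2709.6 and 2382.3 in MMTV-PPARd mice on GW501516 and on chow, against 1922.8 and 1826.6 in wild type. Slc1a5 and the glutamate carrier Slc1a3 lay on the lower side, Slc1a3 at 532.4 and 523.9 in MMTV-PPARd mice, against 747.8 and 815.6 in wild type. Mitochondrial carriers had 4 of 25 above and 6 below, and sugar carriers 3 of 11 above and 2 below. Slc16a1, the lactate and ketone body carrier MCT1, was above, at 2402.9 and 3603.0 in MMTV-PPARd mice on GW501516 and on chow, against 1469.2 and 2305.6 in wild type. The groups were formed by gene family, so Slc5a6 stands with sugar carriers although it moves vitamins, and Slc43a3 with amino acid carriers.

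**Figure D4:**
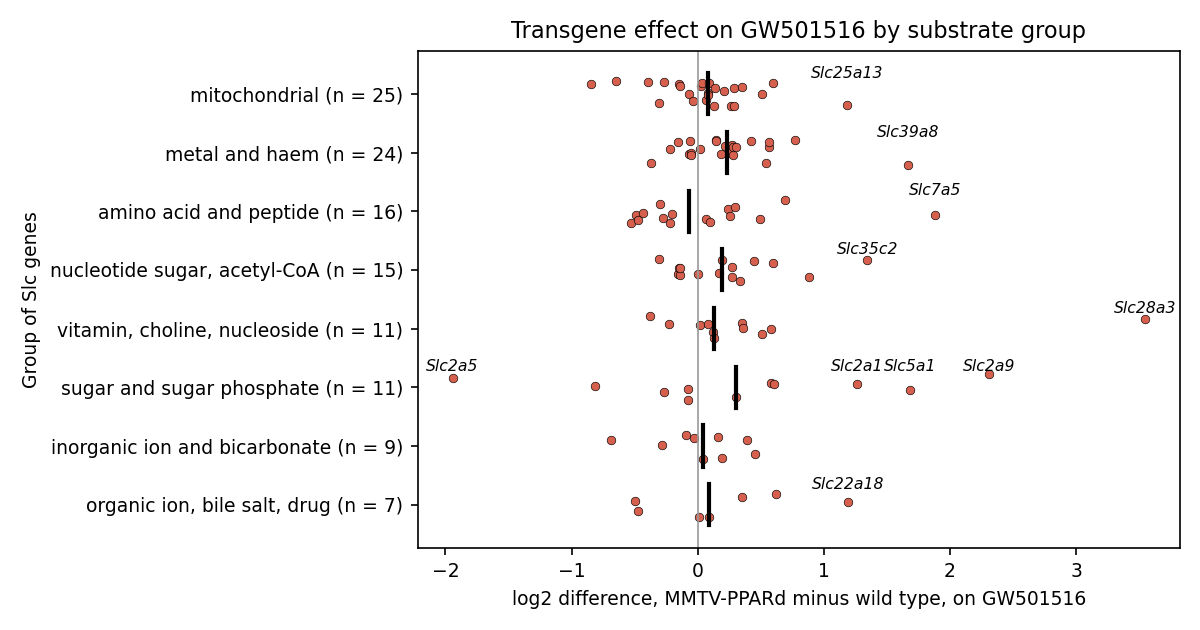
Log2 difference of MMTV-PPARd minus wild type on GW501516 (horizontal) for Slc genes in the 8 largest substrate groups (vertical, spread within a row is for legibility), with 1 point per gene and a bar at the group median; genes at least 2-fold different are named. Group medians run between -0.07 for amino acid and peptide carriers and 0.31 for sugar carriers. Of the 11 sugar carriers, 3 are named as higher and 1 as lower.

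A list of 15 carriers linked to milk synthesis had 11 members here. Slc30a2, Slc5a5 and Slc6a14 did not reach the threshold, and Slc25a1 had no probe set with 1 symbol. On GW501516, Slc2a1 and Slc7a5 were at least 2-fold higher in MMTV-PPARd mice and 0 lower, against 2.82% and 1.19% of all genes kept. Of the 11, 8 lay above 0 with a median of 0.31, against 81 of 127 Slc genes with a median of 0.13. On chow 0 passed 2-fold either way, against 5.46% of all genes kept higher and 3.71% lower. The median was -0.05, of the other sign under 4 other settings. Between GW501516 and chow in MMTV-PPARd mice the median was 0.30, with 10 of 11 above 0. Over all 127 Slc genes that median was 0.17 with 83 above 0, and over the 7836 genes kept -0.03 with 3666 above 0. Both this comparison and that of the genotypes on chow rest on the array with low Gapdh and BioB-M. In wild type, the median of the list between GW501516 and chow was 0.07. Slc35a2, the UDP-galactose carrier that feeds lactose synthesis, read 367.4 and 518.6 in MMTV-PPARd mice on GW501516 and on chow, against 407.8 and 324.4 in wild type. Slc20a1, the phosphate carrier PiT-1, read 422.2 and 355.3, against 308.7 and 463.0. Over the same pools, 12 of 18 milk protein and alveolar markers were at least 2-fold higher in MMTV-PPARd mice on GW501516.

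In MMTV-PPARd mice, GW501516 went with 3 Slc genes at least 2-fold higher than on chow (2.36%), against 3.99% of all genes kept, and 1 lower (0.787%), against 4.07%. Slc28a3 was 3.80-fold, Slc2a9 2.67-fold and Slc35c2 2.09-fold higher (log2 0.66 for its second probe set), and Slc2a5 2.30-fold lower (45.2 on GW501516 against 104.0 on chow). Ppard itself was 2.17-fold higher on GW501516 in these pools. The Slc median was 0.17 and that of all genes -0.03, and 83 Slc genes lay above 0 and 43 below. This comparison too rests on the array with low Gapdh, and 20 of 25 mitochondrial carriers were above 0 in it, against 12 of 25 in wild type. The Slc genes as a whole moved likewise, with 83 of 127 above 0 in MMTV-PPARd mice and 60 of 127 in wild type. Over the 7836 genes kept, 3666 and 3524 lay above 0. Under 2-fold, Slc22a18 was 1.99-fold higher and Slc25a10, the dicarboxylate carrier of mitochondria, 1.85-fold (2480.9 against 1340.4). Slc40a1, the iron exporter ferroportin, was 1.81-fold lower (540.2 against 975.5).

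In wild type, 2 Slc genes were at least 2-fold higher on GW501516 (1.57%), against 3.18% of all genes kept, and 0 lower, against 3.25%. Slc5a1 was at least 2.81-fold higher (57.6 against 14.2, below the floor), and its second probe set differed by 0.73 on the log2 scale. Slc2a5 was 2.01-fold higher (173.8 against 86.6), and its log2 difference was 0.99 with the arrays shifted to 1 median. Slc7a7 was 1.98-fold lower (110.5 against 218.7), Slc7a5 1.84-fold lower and Slc2a3, the glucose carrier GLUT3, 1.67-fold lower (172.8 against 289.0). The Slc median was -0.02 and that of all genes -0.04.

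Across both genotypes, no Slc gene had both GW501516 arrays at least 2-fold above both chow arrays (0 of 127, against 1.70% of all genes) or below (0, against 1.25%). By any amount, 21 Slc genes lay above on both GW501516 arrays (16.5%), against 15.3%, and 12 below (9.45%), against 21.3%. Of the 25 mitochondrial carriers, 6 lay above and 0 below. Slc25a4, the ADP/ATP carrier form of muscle and heart, read 9290.0 in MMTV-PPARd mice on GW501516 and 10232.7 in wild type on GW501516, against 5777.2 and 5624.4 on chow, which is a log2 difference of 0.69 in MMTV-PPARd mice and 0.86 in wild type. Slc24a3, a sodium, calcium and potassium exchanger, read 1155.1 and 1234.6, against 794.1 and 783.0, and Slc6a8, the creatine carrier, 371.0 and 447.7, against 294.4 and 289.6. All 21 skeletal muscle markers were at least 2-fold higher on GW501516 in both genotypes. A muscle-linked list of 5 carriers had 3 members here, as Slc16a3 did not reach the threshold and Slc25a12 had no probe set with 1 symbol. The members, Slc25a4, Slc25a3 and Slc6a8, had a median of 0.33 in MMTV-PPARd mice and 0.63 in wild type, against -0.03 and -0.04 over all genes kept. Slc25a3 itself differed by 0.31 in MMTV-PPARd mice and 0.02 in wild type.

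Among the genes lower on both GW501516 arrays, 6 of the 24 metal and haem carriers are a share near the 21.3% of all genes. Slc11a1, the metal carrier of the macrophage phagosome, read 212.1 in MMTV-PPARd mice on GW501516 and 209.8 in wild type on GW501516, against 243.3 and 300.0 on chow. Slc7a6, which exchanges cationic and neutral amino acids, read 152.4 and 177.2, against 257.6 and 306.3, and Slc9a3r1, the adaptor NHERF1 and not itself a carrier, 1224.9 and 1020.2, against 2067.5 and 1882.4. Of the T cell markers, 9 of 10 were at least 2-fold lower on GW501516 in each genotype, with Cd3d at 40.4 and 30.8, against 533.1 and 1841.0, and the macrophage markers summed to 23889 and 26251, against 21566 and 31025. Slc7a10, a neutral amino acid carrier known from fat cells, went the other way, at 445.3 and 512.4, against 300.6 and 362.9. The fat-linked list, with 3 of 6 carriers in use, had medians of 0.57 in MMTV-PPARd mice and 0.32 in wild type. Those of all genes kept were -0.03 and -0.04, and those of 12 white adipocyte markers 0.39 and 0.06. The values in MMTV-PPARd mice rest on the array with low Gapdh and BioB-M.

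**Figure D5:**
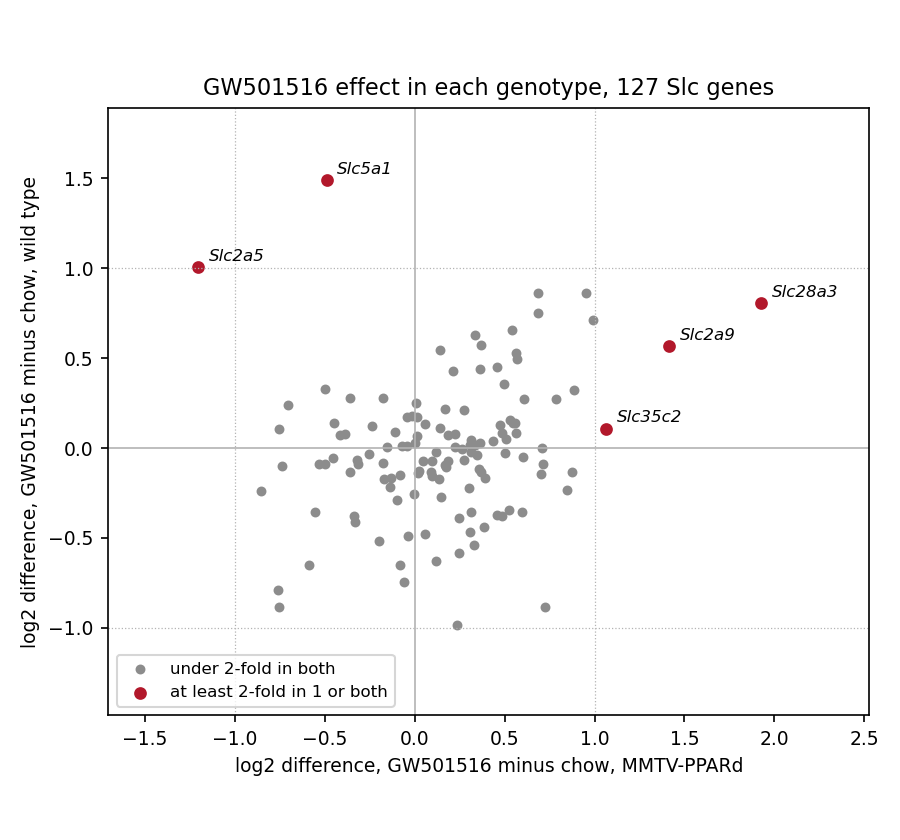
Log2 difference of GW501516 minus chow in MMTV-PPARd mice (horizontal) and in wild type (vertical) for each of the 127 Slc genes, with 2-fold marked by dotted lines; red points are at least 2-fold different in 1 or both genotypes. Slc2a5 and Slc5a1 lie at the upper left, higher on GW501516 in wild type and lower in MMTV-PPARd mice, and no point lies past 2-fold the same way in both; the vertical value of Slc5a1 is a lower bound.

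The difference of the GW501516 effects, MMTV-PPARd minus wild type, was at least 2-fold upward for 5 Slc genes (3.94%), against 4.43% of all genes kept, and downward for 2 (1.57%), against 5.25%. With the arrays shifted to 1 median, the shares of all genes were 5.57% upward and 4.40% downward. Slc7a5 had a log2 difference of 1.61, with an effect of 0.73 in MMTV-PPARd mice and -0.88 in wild type, and Slc7a7 one of 1.22, with effects of 0.23 and -0.98. Slc28a3 had 1.12, with its 2 probe sets both past 2-fold, Slc25a23 1.09, and Slc44a2, a choline transporter-like protein, 1.01, against 0.48 for its second probe set. Downward stood Slc2a5 at -2.21 and Slc5a1 at -1.98, the value of Slc5a1 resting on a wild-type chow intensity below the floor.

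MMTV-PPARd mice on GW501516 against wild type on chow, a comparison that shares its arrays with those above, had 9 Slc genes at least 2-fold higher (7.09%), against 5.50% of all genes kept, and 1 lower (0.787%), against 4.21%. Of the 9, Slc22a18, Slc2a9, Slc35c2 and Slc5a1 reached 139 on MMTV-PPARd arrays only, so nothing is read from the excess. Slc28a3 was 20.4-fold, Slc5a1 at least 9.01-fold and Slc2a9 7.34-fold higher. Slc45a3 was 2.76-fold higher (269.9 in MMTV-PPARd mice on GW501516 and 139.2 on chow, against 177.4 in wild type on GW501516 and 97.7 on chow). Its kept probe set stayed under 2-fold in each comparison of 1 factor, while another member probe set differed by 1.07 on the log2 scale for the transgene on GW501516. Slc41a1, a magnesium carrier named after its values were seen, was 2.18-fold higher. Slc7a6 was 2.01-fold lower. Wild type on chow lay at least 2-fold below the other 3 arrays for 1 Slc gene, Slc5a1 (0.787%), against 1.26%.

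Of the 127 genes, 38 had over 1 member probe set. The kept probe set's log2 difference and the median of the gene's other member probe sets differed with SDs of 0.287 to 0.395 in the 4 comparisons of 1 factor over these 38 genes, and 0.412 to 0.503 over 3897 genes of the whole array with dim probe sets included, which holds no scatter between arrays or mice. In 28 cases of a gene and a comparison with a probe set past 2-fold, all probe sets passed 2-fold the same way in 14, had the same sign in 12 and opposite signs in 2, Slc25a5 and Slc31a2 in the difference of effects. At the edge of the selection, Slc41a3 entered with a highest value of 139.1 for 1 of its probe sets, Slc6a9 with 139.9 and a second probe set of Slc44a2 with 140.5, while Slc52a3 at 136.8, a second probe set of Slc2a3 at 136.5 and one of Slc20a2 at 135.1 stayed out.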

How the data were processed

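Mammary gland RNA of 5 mice per group was read on 1 array per group, 4 arrays in all. The deposited values are linear intensities, 1 per probe set, and per the labels' protocols came from biotin-labelled cRNA of pooled RNA prepared by the Affymetrix protocol. The summarisation method, detection calls and scanner software are not given in the sources used here. Their mean without the lowest and highest 2% was 500.17 to 500.20 on each array, so the values had been scaled to a common mean before deposit, and a difference is relative to that scaling.

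Gene symbols came from the platform table and were brought up to date from RefSeq by gene ID: 20393 had 1 symbol, of which 20364 matched by gene ID, 691 had several and 1606 were not named. Promoter sequences came from RefSeq on GRCm38.p6. For each of 12394 genes the probe set of highest mean was kept, values under 20.5 were set to 20.5, genes reaching 139 on at least 1 array were kept (7836), and log2 differences were taken. A fold against a value below the floor is a lower bound. A call is a difference of at least 2-fold. No test was made, since each group was 1 pool, and precision is limited by the small number of arrays. Intensities of different probe sets were not set against each other.

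The genes named were Ppard and a part of the Slc genes that fixed rules gave, so not every extreme is described. The rules gave the 8 highest and 8 lowest of each comparison of 1 factor, and the 6 highest and 6 lowest differences of GW501516 effects. They gave those past 2-fold the same way on both diets or in both genotypes, and the 3 of highest mean in each substrate group. Also given were the members of the carrier lists, those next to the threshold, and those whose probe sets oppose each other. The members, lists and rules were chosen with earlier results of these data known, and others named are marked as chosen after their values were seen or are called by their counts. The scaling, the floor, the filter and the choice of probe set were each varied. The floored log2 differences and 2-fold calls were tested on simulated data, for the transgene on GW501516. Its noise was smaller than the SDs between probe sets given above. The choice of probe set, the filter and the patterns over several arrays were not tested in this way. Python 3.11.15, numpy 2.4.6, pandas 2.3.3 and matplotlib 3.10.9 were used.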

Additional observations from a re-analysis of the deposited data

Results flagged for a closer look

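Slc2a5, the fructose carrier GLUT5, was at least 2-fold apart between GW501516 and chow in opposite directions in the genotypes, and is given for that reason. It was lower on GW501516 in MMTV-PPARd mice (45.2 on GW501516 against 104.0 on chow) and higher in wild type (173.8 against 86.6), and the log2 difference between these effects was -2.21. The difference was not tested, since each group was 1 pool. It was the 1 Slc gene of 127 with this pattern (0.787%), which 18 of 7836 genes showed (0.230%). It was read by 1 probe set, which reached 139 on the array of wild type on GW501516 alone. That array also had the highest sum over the salivary gland markers (10197, against 3712 in MMTV-PPARd mice on GW501516), and their part in the result was not tested. With the floor at 71.1, the 40th percentile, the log2 effect of Slc2a5 in MMTV-PPARd mice was -0.55. With the arrays shifted to 1 median, its log2 effect in wild type was 0.99. Under either setting 1 of the effects was under 2-fold, so the pattern was not met.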

How the results depend on the processing

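No paired analysis was possible because each group was 1 pool on 1 array and no test was made. No called value reversed its sign under the 9 alternatives. Of the counts and overall medians of the Slc genes under them, 207 values stayed close to those reported and 54 counts moved by over 1.5 times, and of the values of single genes and groups, 830 stayed close and 29 moved. Of the Slc medians, some moved by less than the SD between probe sets yet by over 1.5 times: that of GW501516 in MMTV-PPARd mice was 0.31, that of the transgene on GW501516 0.21 and that of the difference of effects 0.25 with the filter at the 75th percentile, and each of the 6 comparisons had a Slc median and an all-gene median of 0.00 without the filter. Counts are given as Slc genes at least 2-fold higher or lower. Counts below of patterns over several arrays, at 2-fold or by any amount, are given without the share of all genes under the same setting. They cannot be set against all genes, and nothing is read from them. Under the alternatives, the shares of all genes higher and lower lay between 2.37% and 2.99% and between 0.869% and 1.35% for the transgene on GW501516, 4.53% to 5.59% and 3.02% to 4.39% on chow, 3.47% to 4.49% and 2.81% to 4.23% for GW501516 in MMTV-PPARd mice, 2.95% to 3.46% and 2.08% to 3.31% in wild type, 4.57% to 5.68% and 2.72% to 4.27% in the combined comparison, and 3.54% to 5.57% and 4.40% to 5.57% in the difference of effects.

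With the arrays shifted to 1 median (126 Slc genes), GW501516 in wild type gave 1 higher and 1 lower, GW501516 in MMTV-PPARd mice 5 higher, and the transgene on chow 2 lower. After quantile normalization, GW501516 in MMTV-PPARd mice gave 5 higher, and MMTV-PPARd on GW501516 against wild type on chow 0 lower. With the floor at 71.1, GW501516 in wild type gave 1 higher, in MMTV-PPARd mice 0 lower, the difference of effects 1 downward, wild type on chow below the other arrays 0, and the transgene on both diets 3.

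Without the filter (257 Slc genes), GW501516 gave 6 higher and 5 lower in MMTV-PPARd mice and 6 higher and 4 lower in wild type, the transgene on chow 5 lower, the combined comparison 3 lower, the difference of effects 10 upward and 5 downward, and 1 gene lay 2-fold below on both GW501516 arrays. By any amount, 38 lay below on both MMTV-PPARd arrays, 37 above and 19 below on both GW501516 arrays. With the filter at 555, the 75th percentile (49 Slc genes, so fewer could be called), the transgene gave 5 higher and 0 lower on GW501516 and 3 higher and 0 lower on chow (2.99%, 0.869%, 4.98% and 3.02% of all genes under this filter), with 2 on both diets. GW501516 gave 1 higher and 0 lower in MMTV-PPARd mice and 0 higher in wild type, the combined comparison 4 higher and 0 lower, and the difference of effects 3 upward and 0 downward. By any amount there were 17 above and 9 below on both MMTV-PPARd arrays and 8 above and 3 below on both GW501516 arrays, 1 for MMTV-PPARd on GW501516 above the other arrays, and 0 for wild type on chow below them.

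With the mean over probe sets (108), GW501516 in MMTV-PPARd mice gave 2 lower and the combined comparison 0 lower. Without probe sets shared between transcripts (99), the transgene on chow gave 2 lower, and 12 lay above on both GW501516 arrays. Over all 182 member probe sets, GW501516 gave 1 lower in wild type and 5 higher in MMTV-PPARd mice, the transgene 3 lower on chow and 16 higher on GW501516, the combined comparison 15 higher, the difference of effects 10 upward and 5 downward, 5 lay 2-fold above on both MMTV-PPARd arrays and 45 below by any amount. Beyond the smaller sets tested, the cause of these moves was not tested.

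Of named genes, with the floor at 71.1 Slc25a13 was 0.51 for the transgene on GW501516, Slc2a9 0.28 on chow, Slc5a1 0.00 for GW501516 in wild type and -0.49 in the difference of effects. Slc35c2 was 0.66 for GW501516 in MMTV-PPARd mice without shared probe sets, and Slc7a6 -0.78 in the combined comparison with the mean over probe sets.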
